A study of Mus musculus with 10 samples.

Results

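The genes described here encode the subunits of the 5 enzyme complexes of oxidative phosphorylation, with assembly factors and tissue isoforms that share their names. They were chosen by symbol: all genes whose symbol starts with Nduf, Uqcr, Atp5 or Cox4 to Cox8, together with Sdha, Sdhb, Sdhc, Sdhd and Cyc1, each read at its brightest probe set that the array annotation ties to 1 gene. This gave 91 of 18193 measured genes, with 44 named for complex I, 4 for complex II, 9 for complex III, 17 for complex IV and 17 for complex V. The RNA came from lymph node T cells positive for CD4 and CD25, a population that includes regulatory T cells, of BALB/c mice aged 17 to 19 days. Mice homozygous for loss of SHP-1, the phosphatase encoded by Ptpn6 (me, with the motheaten phenotype), gave 3 arrays, heterozygous mice (he) gave 3 arrays and wild type mice (WT) gave 4 arrays. In all groups the cells were isolated with a kit and received no treatment or culture, and 20 ng of total RNA was amplified before 10 ug of the product was labelled and hybridised to Affymetrix arrays. The labels name no motheaten allele. They describe the arrays as biological replicates without naming animals, so p-values measure the spread between these arrays, which may be technical in part. Values are given as log2(intensity + 32) after quantile normalisation.

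Complexes I to IV pass electrons from NADH and succinate to oxygen in the inner mitochondrial membrane, and complexes I, III and IV pump protons as they do so. Complex V, the ATP synthase, lets the protons flow back and makes ATP. Regulatory T cells are known for relying on this pathway more than conventional effector T cells, which rely more on glycolysis. Most subunits are encoded in the nucleus and join a few core subunits encoded in mitochondrial DNA.

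Of the 91 genes, 40 had 1 probe set and 51 had several, up to 6. The mean level was at or above the median of all tested probe sets for 85 of them. The 6 below it were Ndufa4l2, Cox4i2, Cox6b2, Cox7a1, Cox7b2 and Cox8b, all of them isoforms with a restricted expression in other tissues. Cox7b, Ndufa11, Ndufb4b, Ndufb4c and Ndufs6 had no probe set tied to them alone and were not analysed here. For 22 of the 91 genes the probe set used ends in _s_at or _x_at, which means that its probes can also match related sequences.

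The arrays fell into 2 sets that did not follow genotype. Set A held me 1, me 3, he 1, WT 1 and WT 2, and set B held me 2, he 2, he 3, WT 3 and WT 4. A me difference within set B thus rests on me 2 alone, and a he difference within set A on he 1 alone. Over all probe sets, arrays correlated with r of 0.970 to 0.996 inside a set and of 0.854 to 0.944 across sets, and me 3 lay between the sets on the first principal component. Differences are therefore given without and with array set as a block. At both of its probe sets Ptpn6 was lower in every me array than in every he array, and lower in every he array than in every WT array. The exact permutation p for me or he against WT was 0.0571 (2-sided), the smallest that 3 against 4 arrays allow. All 7 Treg markers were measured, with a mean log2 level of 10.73 to 10.80 in me, 10.69 to 10.87 in he and 10.58 to 10.74 in WT arrays. The 6 plasma cell markers measured, of 7 listed, had a mean log2 level of 9.082 to 9.981 in me, 8.722 to 9.090 in he and 8.660 to 9.079 in WT arrays. In this level every me array was above every WT array, while me and he overlapped. These markers had a summed intensity of 5225 to 15795 in me, 3529 to 8871 in he and 3555 to 8919 in WT arrays, which overlapped. Among them Jchain, which joins secreted antibodies, had log2 levels of 9.82, 7.96 and 10.14 in me, 7.21, 7.16 and 7.04 in he and 7.06, 7.10, 7.11 and 7.03 in WT arrays, so it was highest in the me arrays with me 2 below the other two. The 7 neutrophil markers measured, of 8 listed, had a summed intensity of 981 to 1877 in me, 1012 to 1493 in he and 961 to 1418 in WT arrays. The 3 gamma delta T cell markers measured, of 5 listed, had a mean log2 level of 8.29 to 8.40 in me, 8.36 to 9.26 in he and 8.64 to 9.18 in WT arrays, and a summed intensity of 775 to 1045 in me, 869 to 2368 in he and 1209 to 2656 in WT arrays. All 3 were lower in me than in WT, with a median difference of -0.81 without the block and -0.84 with it. The me arrays did not overlap the WT arrays in the mean level, and the he arrays overlapped both. The 6 B cell markers measured, of 7 listed, had a summed intensity of 1086 to 1543 in me, 970 to 1284 in he and 911 to 1327 in WT arrays, with 5 of 6 higher in me without the block and 6 of 6 with it. The markers of macrophages and monocytes had a median me minus WT difference of 0.12 with the block and those of CD8 and NK cells one of 0.15. Those of the red cell lineage had one of -0.022 and those of muscle one of -0.027. Mean log2 levels of the CD8 and NK markers split by array set, at 7.95 to 8.19 in set A and 8.55 to 8.78 in set B. Red cell markers split too, at 7.40 to 7.57 and 7.74 to 8.08, as did muscle markers, at 7.41 to 7.46 and 7.50 to 7.64. Levels of the other marker lists overlapped between the sets. No marker passed the test. The Gapdh 3′ to 5′ intensity ratio, a measure of RNA quality and of amplification, was 10.9, 9.92 and 13.8 in me, 9.71, 7.88 and 8.53 in he and 9.53, 7.84, 9.27 and 7.90 in WT arrays. Every me array was above every he and WT array, with me 3 the highest. The same ratio of actin was 13.9, 12.4 and 12.1 in me, 13.9, 16.5 and 14.5 in he and 11.99, 16.4, 17.7 and 13.99 in WT arrays, which overlapped. The part of RNA quality in the differences below was not tested. By Xist and Eif2s3y, me 1, me 2, WT 2 and WT 4 were male. The other me and WT arrays and all he arrays were female, so he differed from WT and me in its share of males. Sex was not in the fits, and its part in the differences below was not tested. The part of other cells in the differences below was not tested. In bulk RNA, fewer cells of a type and less RNA per cell cannot be told apart.

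Promoters of oxidative phosphorylation genes are known for sites of NRF1, of ETS factors such as GABP and of YY1. The 250 bases before the start of each gene were therefore searched on both strands for the NRF1 letters (GCGCA, any base, then GCGC), the ETS letters CCGGAAG and the YY1 letters AAGATGGCG, none of which contains another. RefSeq promoters of build GRCm38.p6 were at hand for 74 of the 91 genes and for 14452 measured genes. The NRF1 letters were in 12 of the 74 promoters (16.2%), against 7% of all measured genes with a promoter. The ETS letters were in 14 (18.9%), against 11.8%, and the YY1 letters in 1 (1.35%), against 1.04%. The median GC content was 57.6% for the 74 and 58.8% for all. A match describes letters and does not show a bound site. The stretches below hold matches, in capitals, of genes that recur in the results. Ndufb4, Ndufs5 and Sdhd are among those that differed most between array sets, Ndufaf4 and Atp5k had low unadjusted p-values, Atp5h did not overlap between me and he arrays, and Cox6a1 is the third gene, after Sdhd and Atp5h, that held both the NRF1 and the ETS letters. Each is written 5′ to 3′ along the gene's strand, where a match to the other strand reads as the reverse complement.
Ndufb4 (chr16:37654369-37654571, minus strand): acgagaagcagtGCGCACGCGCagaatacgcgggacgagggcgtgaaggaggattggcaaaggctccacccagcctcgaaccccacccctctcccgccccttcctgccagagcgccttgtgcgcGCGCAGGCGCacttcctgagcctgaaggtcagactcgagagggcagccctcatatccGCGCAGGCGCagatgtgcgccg
Ndufs5 (chr4:123718263-123718296, minus strand): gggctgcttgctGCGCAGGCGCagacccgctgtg
Ndufaf4 (chr4:24897958-24897991, plus strand): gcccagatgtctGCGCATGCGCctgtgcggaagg
Sdhd (chr9:50603877-50603940, minus strand): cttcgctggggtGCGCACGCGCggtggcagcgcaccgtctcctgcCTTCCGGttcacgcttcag
Cox6a1 (chr5:115348959-115349132, minus strand): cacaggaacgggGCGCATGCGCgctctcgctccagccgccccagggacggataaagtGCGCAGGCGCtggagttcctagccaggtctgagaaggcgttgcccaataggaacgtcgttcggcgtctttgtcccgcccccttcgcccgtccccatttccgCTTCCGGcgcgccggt
Atp5h (chr11:115419939-115420072, minus strand): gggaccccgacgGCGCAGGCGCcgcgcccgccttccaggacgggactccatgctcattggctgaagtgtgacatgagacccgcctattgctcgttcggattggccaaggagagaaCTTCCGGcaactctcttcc
Atp5k (chr5:108434428-108434461, minus strand): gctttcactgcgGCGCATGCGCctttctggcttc
Ndufb4 held the NRF1 letters 3 times. Cox5a, Ndufa12, Ndufc2, Ndufv1 and Cox7a2l, which are described below, held none of these letters in that window.

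No subunit passed the test in any comparison of genotypes. With limma and Benjamini-Hochberg adjustment over 45037 probe sets, 0 of 91 genes had an adjusted p under 0.05 for me against WT, he against WT, me against he or the F test over the 3 genotypes, where 0% of all probe sets did. With array set as a block the count was again 0 of 91 in each, and 3 probe sets of other genes (0.00666%) were called for me against WT. Ptpn6 itself did not pass this test at either of its probe sets in any comparison, without or with the block. With the block its me minus WT differences were -0.69 and -1.06, with adjusted p of 0.0549 and 0.0908 in limma. A count of 0 thus does not show that no subunit changed. At an unadjusted p under 0.05 without the block, 1 of 91 genes stood out for me against WT (Ndufa12; 0.874% of all genes did), 1 for he against WT (Ndufv1; 0.335% of all genes did) and 0 for me against he, where 0.841% of all genes did. With each array left out these counts ran from 0 to 2 in all 3 comparisons. The intervals bound what could have been missed. With the block, the 95% interval of the me minus WT difference lay within 0.5 log2 units of 0, a 1.41-fold change, for 88 of 91 genes and within 0.25, a 1.19-fold change, for 36. The 3 wider ones were Ndufb4, Sdhd and Cox7c. With me 3, the array between the sets, counted in set B, 82 lay within 0.5. Without the block 66 of 91 intervals lay within 0.5.

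The median of the 91 me minus WT differences was -0.0064 log2 units without the block, with 44 genes higher and 47 lower in me, against 0.00017 over all 18193 genes. With the block it was -0.043, with 35 higher and 56 lower, against -0.0015 over all genes. The value without the block turned with single arrays, since it was 0.067 without me 2 and -0.054 without me 3. The value with the block ran from -0.059 (without WT 1) to -0.020 (without me 1) when each array was left out, but it rested on the set of me 3: with me 3 counted in set B it was 0.024, and complexes I, III and V then had 0.00048, 0.014 and 0.036. It was -0.055 within set A and -0.033 within set B. In both sets alike, 42 of the 91 genes were lower in me (46.2%) and 12 were higher (13.2%), against 29.9% and 23.8% of all genes. These counts rested on me 3 too: with me 3 counted in set B, 18 were lower in both sets (19.8%) and 15 were higher (16.5%), against 25.9% and 26.8% of all genes. The Gapdh ratio given above was highest in the me arrays. The genes share arrays, so these shares are a description and not a test.

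**Figure D1:**
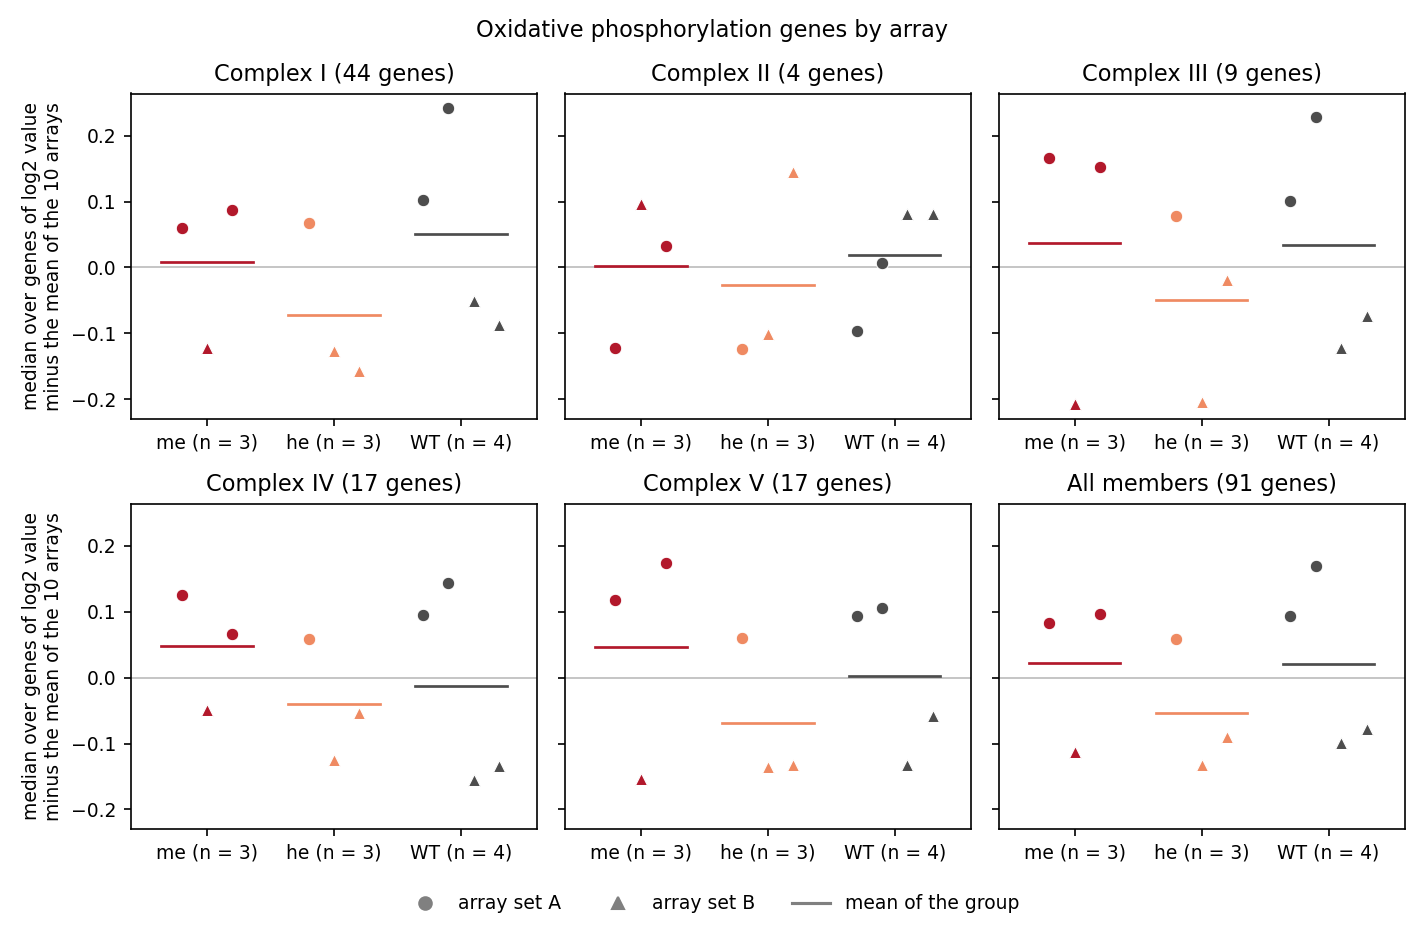
Median over the genes of each complex of the log2 value minus that gene's mean over the 10 arrays (vertical axis), for me, he and WT arrays, with circles for array set A, triangles for set B and a line at the mean of each group. Set A arrays lie above set B arrays for complexes I, III, IV and V, while me, he and WT arrays overlap in every panel.

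By array, the median over all 91 genes, taken relative to each gene's mean of the 10 arrays, was 0.084, -0.11 and 0.097 in me 1 to me 3, 0.059, -0.13 and -0.089 in he 1 to he 3, and 0.094, 0.17, -0.099 and -0.079 in WT 1 to WT 4. The 5 arrays of set A were above 0 and the 5 of set B below it, in each genotype, and the genotypes overlapped. Set beside the WT arrays of the same array set, the medians were -0.069, -0.033 and -0.042 in the me arrays and -0.076, -0.058 and -0.022 in the he arrays. All 6 were below 0, with me 3 set beside WT 1 and WT 2. Over all genes the 6 medians were below 0 too, but smaller. They were -0.0077, -0.014 and -0.011 in the me arrays and -0.014, -0.0080 and -0.0060 in the he arrays. For the 91 genes the WT arrays themselves ran from -0.045 to 0.045. Each WT array is part of the mean it is set beside, which narrows that range, so it is no yardstick for the 6.

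The array sets moved these genes more than genotype did. The mean of set B minus that of set A had a median of -0.23 over the 91 genes, with 64 lower in set B, against -0.046 over all genes. It was -0.24 for complex I, 0.12 for complex II, -0.28 for complex III, -0.20 for complex IV and -0.27 for complex V. The genes of the membrane part of complex V outside the c ring were lowest in set B, with a median of -0.38 and all 5 lower, while the 8 assembly factors of complex I had a median of 0.12, with 5 higher. The values depend on scaling: without normalisation the median of the 91 genes was -0.65 and that of all genes 0.0056, and after centring on the array median they were -0.89 and -0.23. Complex II turned to -0.54 and -0.77 under these scalings. Bright genes in general moved the same way. For the 1104 genes at or above the median level of the 91, array medians relative to the mean of the 10 arrays were also split. They were 0.046 to 0.084 in set A and -0.078 to -0.030 in set B, against 0.059 to 0.17 and -0.13 to -0.079 for the 91. The sets were drawn from the same arrays' values, so the gaps carry no test.

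**Figure D2:**
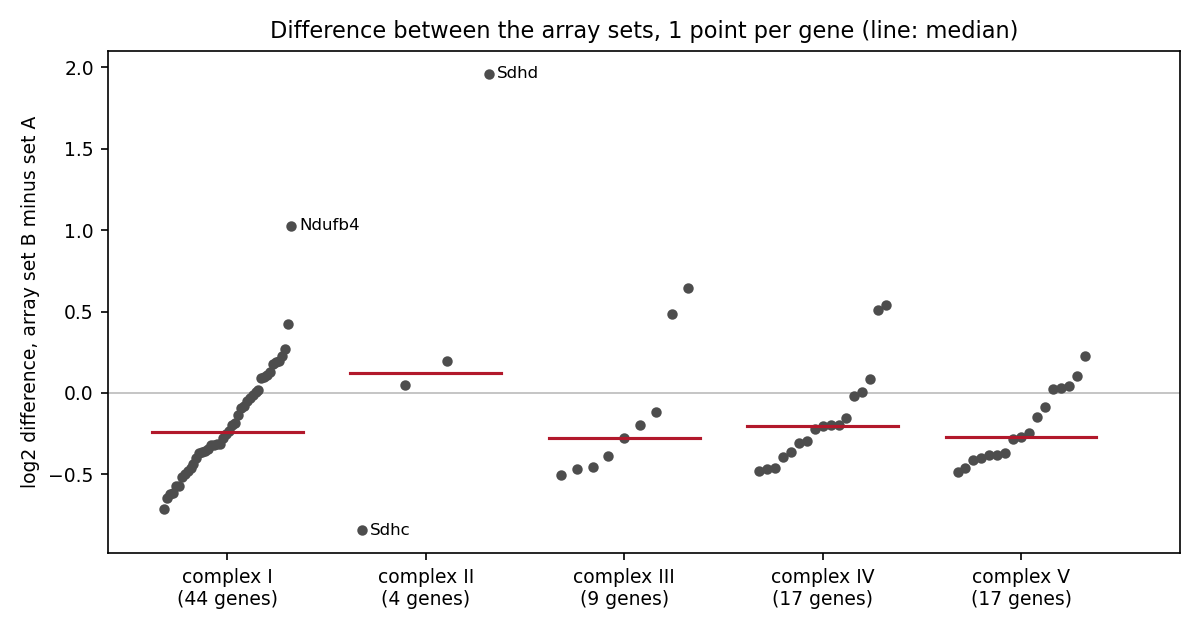
Difference in mean log2 level between the arrays of set B and of set A (vertical axis), 1 point for each gene by complex, with a line at the median. Most points lie below 0, and Sdhd (1.96) and Ndufb4 (1.03) lie farthest above it.

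Single genes and probe sets went both ways between the array sets. Sdhd, a membrane anchor of complex II, had log2 values of 9.57, 11.90 and 10.80 in me, 9.79, 11.81 and 12.04 in he and 9.77, 9.83, 11.85 and 11.96 in WT arrays. Every array of set B was above every array of set A, and me 3 lay between the others. Its gap between sets was 1.96 at this probe set and -0.55 at its other one. Ndufb4, an accessory subunit of complex I, had 7.41, 8.57 and 8.19 in me, 7.27, 8.55 and 8.53 in he and 7.32, 7.44, 8.53 and 8.59 in WT arrays, with a gap of 1.03. Sdhc, the other membrane anchor, had 8.82, 7.83 and 8.71 in me, 8.86, 8.10 and 7.92 in he and 8.86, 8.83, 7.89 and 8.12 in WT arrays, with set A above set B and a gap of -0.84, or -0.59 at its second probe set. Ndufs5, a small subunit of complex I, had a gap of -0.71. In complex III, Uqcrc2 and Uqcrh were higher in set B, by 0.49 and 0.65, and the other 7 were lower. Genes of almost constant level over the 10 arrays were Ndufv2, with a range of 0.20, Atp5g3 with 0.22, Atp5j with 0.23 and Sdha with 0.26. In 19 of the 51 genes with several probe sets, the probe sets moved in opposite directions between the array sets.

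**Figure D3:**
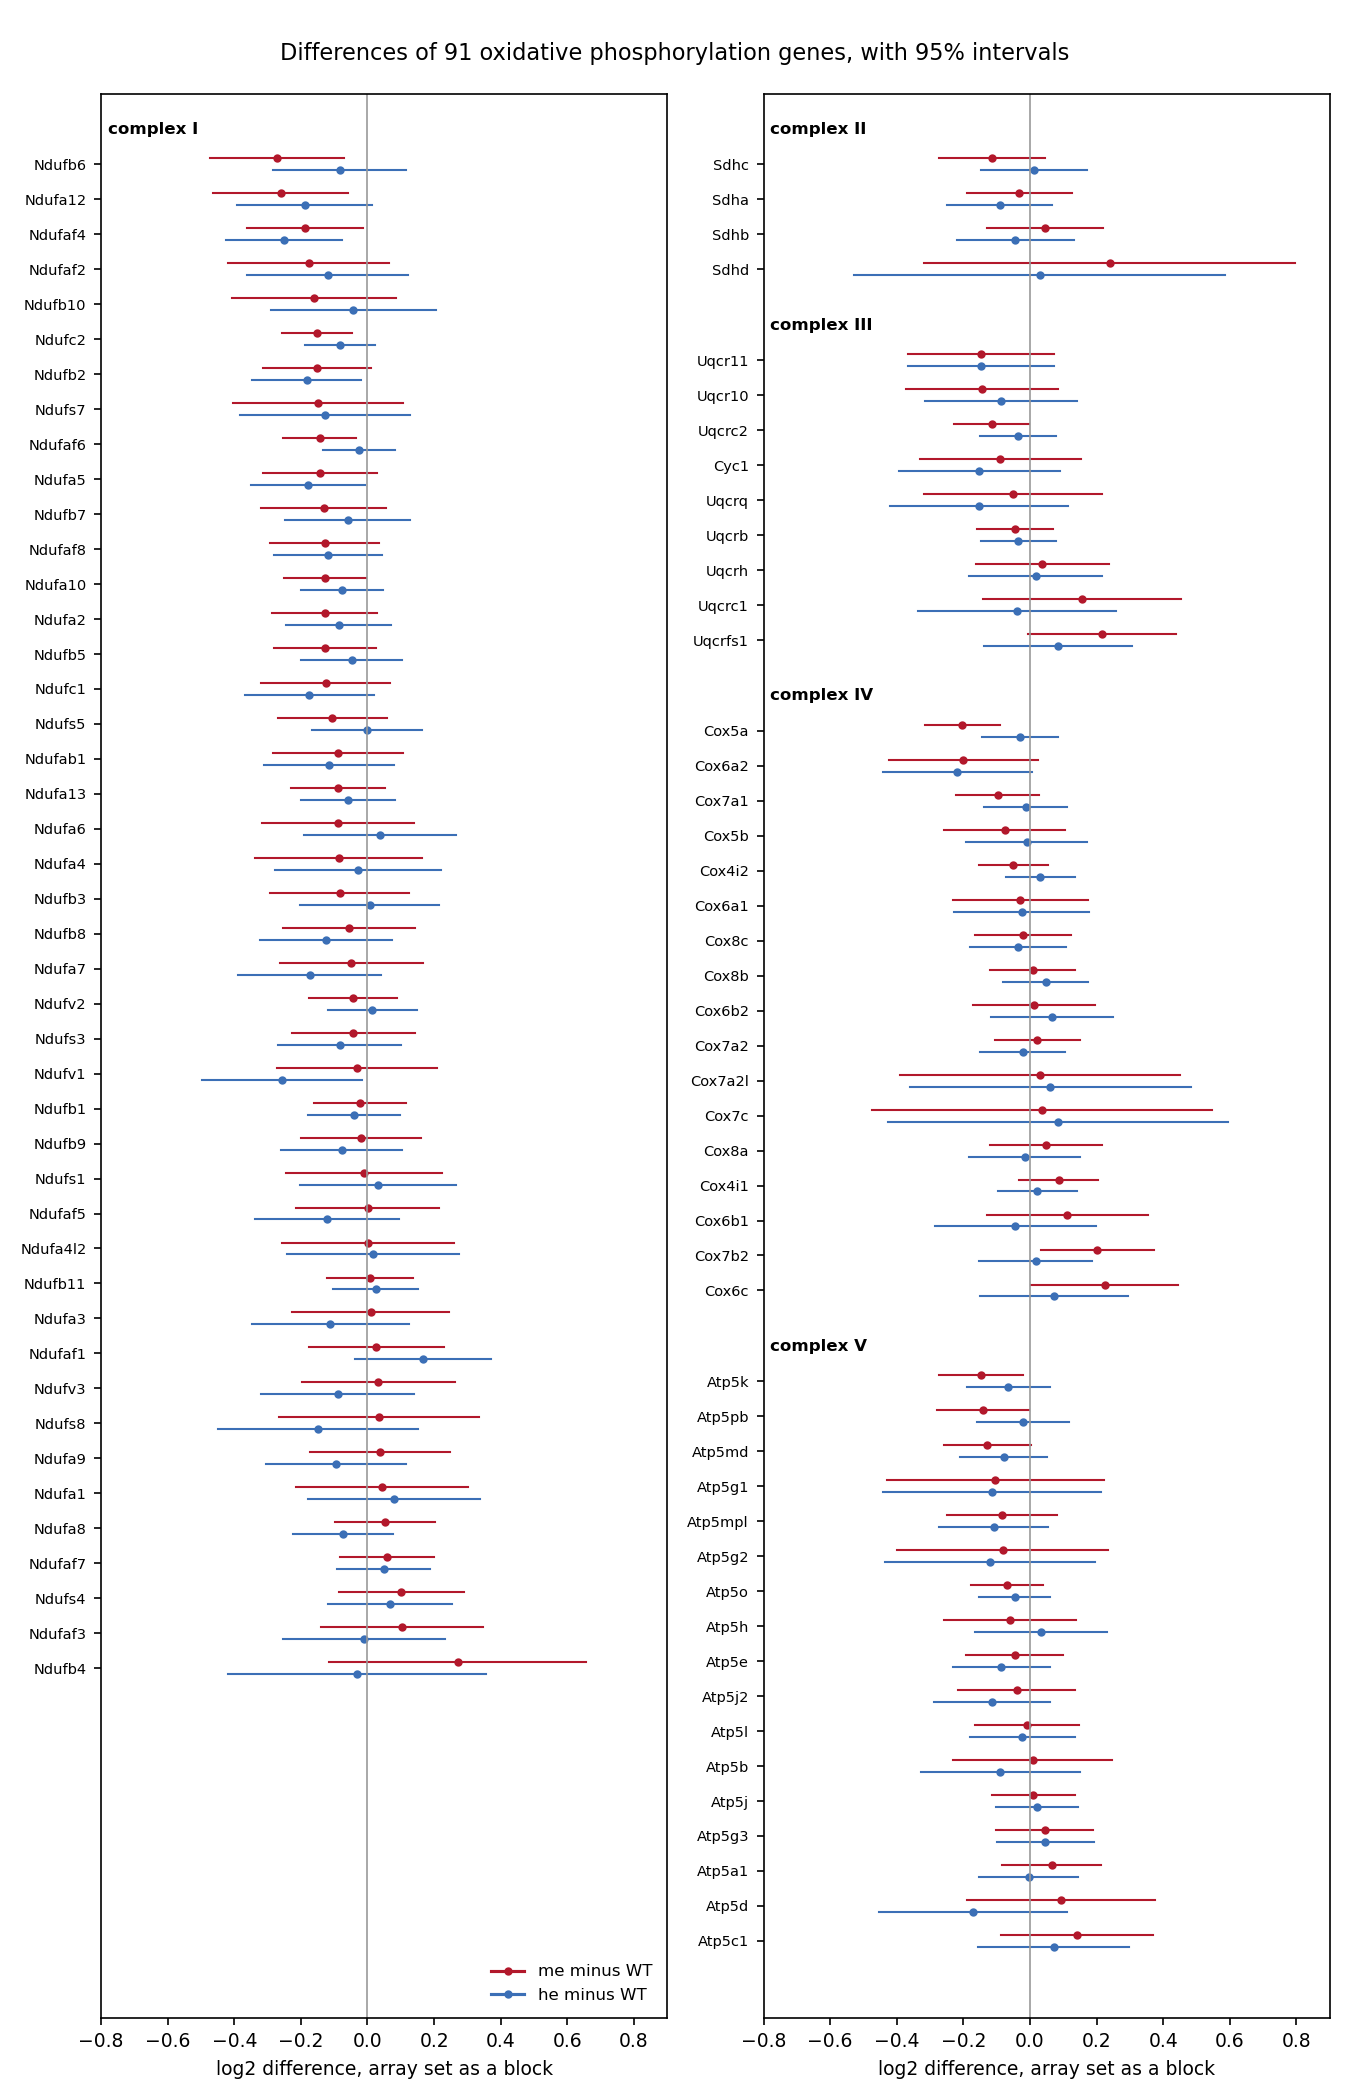
Differences in log2 level with array set as a block (horizontal axis) for the 91 genes by complex, ordered by me minus WT. Points are estimates and bars are 95% intervals, red for me minus WT and blue for he minus WT, and 88 of the 91 red intervals lie within 0.5 of 0.

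Complex I oxidises NADH and is the largest of the complexes. The median me minus WT difference of its 44 genes was -0.025 without the block and -0.070 with it, and 30 of the 44 were lower in me with the block. When each array was left out, it ran from -0.067 (without me 1) to 0.034 (without me 2) without the block and from -0.091 (without me 2) to -0.064 (without WT 4) with it. It was -0.12 within set A and -0.029 within set B. The 6 core subunits measured, which carry the flavin and iron-sulfur clusters, had a median of -0.037 with the block. The 28 accessory subunits had a median of -0.088, with 20 lower in me, and the 8 assembly factors one of -0.064, with 4 lower and 4 higher. With me 3 counted in set B these medians were -0.014, 0.027 and -0.033, with 12 of the 28 accessory subunits lower in me.

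Among the core subunits, Ndufs1, the largest iron-sulfur subunit, had log2 values of 9.93, 9.86 and 9.89 in me, 9.98, 9.85 and 10.07 in he and 9.97, 9.62, 9.97 and 10.11 in WT arrays. The groups overlapped, and the me minus WT difference with the block was -0.011 with a 95% interval from -0.24 to 0.22. Ndufs3, Ndufs7 and Ndufs8, subunits of the arm that leads to ubiquinone, differed by -0.043, -0.15 and 0.035, and Ndufv2, which binds an iron-sulfur cluster beside the NADH site, by -0.043. All these intervals included 0. Ndufv1 is described with the he arrays below.

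Ndufa12, an accessory subunit of the arm that faces the matrix, had the smallest unadjusted p of the 91 genes for me against WT without the block. Its log2 values were 10.91, 10.91 and 11.17 in me, 11.03, 11.02 and 11.10 in he and 11.13, 11.45, 11.17 and 11.24 in WT arrays. The 3 he arrays, me 1 and me 2 were below every WT array, and me 3 lay inside the WT range. The me arrays differed from WT by -0.25 ± 0.098 (log2, SE), or 1.19-fold lower, with an unadjusted p of 0.031 and an adjusted p of 1.00 in limma. With the block the difference was -0.26, with a 95% interval from -0.46 to -0.057 and an adjusted p of 0.989, and it was -0.25 within set A, -0.30 within set B and -0.25 with me 3 counted in set B. Its 3 other probe sets differed by -0.20, -0.22 and -0.062 with the block, the last of them at the lowest level.

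Ndufc2, an accessory subunit of the membrane arm, had log2 values of 11.72, 11.59 and 11.78 in me, 11.77, 11.72 and 11.70 in he and 11.85, 11.92, 11.81 and 11.74 in WT arrays. Of the me arrays only me 3 was above the lowest WT array. The difference from WT was -0.15 with the block (unadjusted p 0.010), while its 3 other probe sets gave 0.070, -0.0086 and -0.039. Ndufb6, also of the membrane arm, had 11.06, 10.46 and 10.87 in me, 11.18, 10.65 and 10.47 in he and 11.25, 11.46, 10.55 and 10.57 in WT arrays. Its values split by array set, and each me array was below both WT arrays of its own set. The difference was -0.27 with the block (unadjusted p 0.014), -0.056 with me 3 counted in set B and -0.13 at its other probe set. Ndufa10, an accessory subunit, differed by -0.13 with the block (unadjusted p 0.042). The assembly factors Ndufaf6 and Ndufaf4 differed by -0.14 and -0.19 (unadjusted p 0.015 and 0.038).

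Other accessory subunits had intervals that included 0. Ndufb10 and Ndufa2 differed by -0.16 and -0.13 with the block, and the assembly factor Ndufaf8 by -0.13. On the higher side stood Ndufs4, needed for a complete matrix arm, with 0.10 and an interval from -0.086 to 0.29, and Ndufb4, with 0.27 and an interval from -0.12 to 0.66. Ndufb11, encoded on the X chromosome and the brightest gene of the complex, differed by 0.0078. Ndufa4, which carries a complex I name but is known to act in complex IV, differed by -0.087, and its isoform Ndufa4l2, best known from low oxygen, by 0.0023. Ndufa9 lies on the chromosome of Ptpn6, with 78 genes between them, and differed by 0.037.

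Complex II, succinate dehydrogenase, is also an enzyme of the TCA cycle. Sdha, the flavoprotein, had log2 values of 10.67, 10.87 and 10.77 in me, 10.70, 10.63 and 10.85 in he and 10.72, 10.89, 10.83 and 10.81 in WT arrays. The groups overlapped, and the me minus WT difference with the block was -0.032, with a 95% interval from -0.19 to 0.13. Sdhb, the iron-sulfur subunit, differed by 0.045, with an interval from -0.13 to 0.22. Sdhc and Sdhd differed by -0.11 and 0.24, and the interval of Sdhd, from -0.32 to 0.80, was the widest of the 91.

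Complex III carries electrons from ubiquinol to cytochrome c. Its 9 genes had a median me minus WT difference of -0.026 without the block and -0.050 with it, with 6 of 9 lower in me with the block. When each array was left out, it ran from -0.087 (without WT 3) to 0.12 (without me 2) without the block and from -0.11 (without WT 1) to -0.015 (without me 1) with it. Uqcrfs1, the Rieske iron-sulfur protein, had log2 values of 10.97, 10.77 and 10.88 in me, 10.82, 10.60 and 10.71 in he and 10.86, 10.42, 10.61 and 10.68 in WT arrays. Only he 1 and WT 1 reached into the range of the me arrays, and the difference from WT was 0.23 ± 0.11 (SE), with an unadjusted p of 0.061. The core proteins Uqcrc1 and Uqcrc2 differed by 0.16 and -0.12 with the block (unadjusted p 0.261 and 0.048). Cyc1, the cytochrome of the complex that passes electrons on, had 10.81, 10.54 and 11.14 in me, 10.91, 10.36 and 10.65 in he and 10.87, 11.17, 10.67 and 10.71 in WT arrays, which overlapped, and differed by -0.089, with an interval from -0.33 to 0.15. The small subunits Uqcr10, Uqcr11 and Uqcrb differed by -0.14, -0.15 and -0.046.

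Complex IV, cytochrome c oxidase, passes the electrons to oxygen. Its 17 genes had a median me minus WT difference of 0.037 without the block, with 14 of 17 higher in me, and of 0.013 with it, with 10 higher. The sign was not stable: the median was -0.039 within set A and 0.041 within set B, and -0.0079 without normalisation, with 7 of 17 higher. When each array was left out, it ran from -0.0096 (without WT 4) to 0.11 (without me 2) without the block and from -0.030 (without me 2) to 0.037 (without WT 2) with it. With me 3 counted in set B it was 0.076. The 9 broadly expressed subunits had a median of 0.035 with the block and the 7 tissue isoforms one of -0.020, or 0.0998 and 0.021 with me 3 counted in set B.

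Cox5a, a subunit on the matrix side, had the smallest unadjusted p of the 91 genes for me against WT with the block. Its log2 values were 12.67, 12.23 and 12.52 in me, 12.78, 12.34 and 12.42 in he and 12.82, 12.81, 12.38 and 12.42 in WT arrays. Within each array set the me arrays were below both WT arrays, while across sets the groups overlapped. The difference was -0.20 ± 0.050 (SE) with the block, with a 95% interval from -0.32 to -0.089, an unadjusted p of 0.0031 and an adjusted p of 0.836. Without the block it was -0.14, with an interval from -0.51 to 0.24, and with me 3 counted in set B it was -0.074. A second probe set gave -0.20 with the block, and the third gave 0.029.

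Cox6c, a small membrane subunit, was the only one of the 91 genes whose me arrays did not overlap the WT arrays, as 1.61% of all genes did not. Its log2 values were 11.82, 11.66 and 11.71 in me, 11.66, 11.56 and 11.55 in he and 11.57, 11.24, 11.63 and 11.61 in WT arrays. Every me array was above every WT array, WT 2 was far below the other WT arrays, and he overlapped WT. The difference from WT was 0.22 ± 0.10 (SE), or 1.16-fold higher, with an adjusted p of 1.00. It was 0.36 within set A, which holds WT 2, and 0.041 within set B, and the other probe set of Cox6c gave -0.15 with the block.

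**Figure D4:**
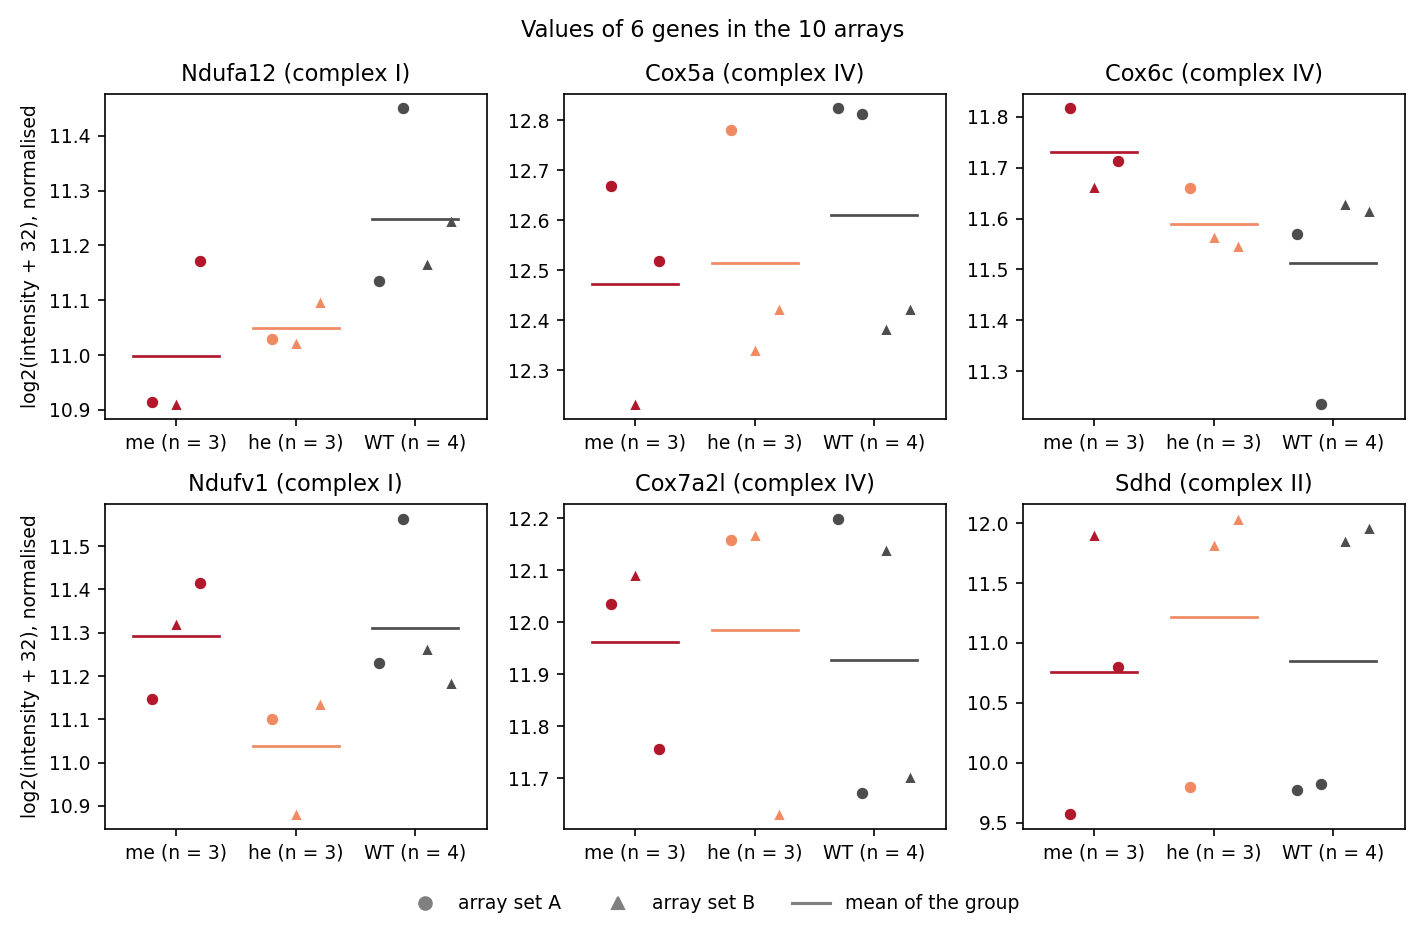
Normalised log2(intensity + 32) of 6 genes (vertical axis, not starting at 0) in me, he and WT arrays, with circles for array set A, triangles for set B and a line at the mean of each group. Cox6c is higher in all 3 me arrays than in all 4 WT arrays, Ndufv1 is lower in all 3 he arrays than in all WT arrays, Cox7a2l falls into high and low arrays in every genotype, and Sdhd splits by array set.

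Cox4i1, the subunit at which ATP and ADP are known to act, differed between me and WT by 0.086 with the block, with an interval from -0.032 to 0.20, and its lung isoform Cox4i2 by -0.050. Cox5b, which binds zinc, differed by -0.076. The broadly expressed forms Cox6a1, Cox6b1 and Cox7a2 differed by -0.029, 0.11 and 0.021. Their counterparts best known from muscle or testis, Cox6a2, Cox6b2 and Cox7a1, differed by -0.20, 0.013 and -0.097. Cox8a, Cox8b and Cox8c differed by 0.048, 0.0076 and -0.020. Cox7b2, a testis isoform under the median level of all probe sets, differed by 0.20 (unadjusted p 0.025), with 7.08, 7.77 and 7.40 in me, 7.05, 7.62 and 7.58 in he and 7.05, 7.01, 7.53 and 7.64 in WT arrays, which overlapped and split by array set.

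Cox7a2l, which helps to join complexes III and IV into supercomplexes, varied between arrays in a way that followed neither genotype nor array set. Its log2 values were 12.03, 12.09 and 11.76 in me, 12.16, 12.17 and 11.63 in he and 12.20, 11.67, 12.14 and 11.70 in WT arrays. The arrays me 3, he 3, WT 2 and WT 4 were low, the other 6 were high, and none lay between 11.76 and 12.03. Its second probe set had 11.41, 11.41 and 11.13 in me, 11.51, 11.48 and 11.03 in he and 11.55, 11.03, 11.48 and 11.12 in WT arrays, and parted the same arrays. The third, whose probes can match related sequences, had 10.44, 10.66 and 10.46 in me, 10.55, 10.62 and 10.40 in he and 10.60, 10.02, 10.77 and 10.33 in WT arrays, without a clear gap. The me minus WT difference with the block was 0.029, with an interval from -0.39 to 0.45. The arrays male by Xist and Eif2s3y (me 1, me 2, WT 2 and WT 4) stood in both the high and the low group. Within array sets its spread of 0.25 (log2, SD) was exceeded among the 91 genes by Sdhd with 0.35, Cox7c with 0.30 and Ndufb4 with 0.27. Cox7c, a small membrane subunit, had 8.76, 8.65 and 8.56 in me, 9.08, 8.61 and 7.95 in he and 9.19, 8.46, 8.31 and 8.21 in WT arrays, highest in WT 1 and lowest in he 3.

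Complex V had a median me minus WT difference of 0.0084 over its 17 genes without the block and -0.046 with it, with 11 of 17 lower in me with the block. When each array was left out, it ran from -0.084 (without me 3) to 0.071 (without me 2) without the block and from -0.084 (without me 3) to -0.0094 (without me 1) with it. The 5 genes of the F1 part, which holds the catalytic sites and the rotor stalk, had a median of 0.065 with the block, with 4 of 5 higher. The 5 genes of the membrane part outside the c ring had a median of -0.084, with all 5 lower. The 4 genes of the stalk that holds the head in place had a median of -0.065. With me 3 left out the F1 median was -0.014. With me 3 counted in set B the 3 medians were 0.11, 0.024 and 0.021, with 2 of 5 membrane genes lower in me.

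Atp5a1, the alpha subunit, had log2 values of 12.67, 12.45 and 12.57 in me, 12.62, 12.36 and 12.36 in he and 12.57, 12.40, 12.46 and 12.46 in WT arrays. The groups overlapped, and the difference from WT with the block was 0.065, with an interval from -0.083 to 0.21. Its other probe sets gave -0.24 and 0.35, each with an unadjusted p under 0.05, and Atp5a1 was the only gene of the 51 with several probe sets for which such values were opposed. Atp5b, the catalytic beta subunit, differed by 0.0076, with an interval from -0.23 to 0.25. Atp5c1, the rotating gamma subunit, differed by 0.14, with 0.28 within set A and -0.058 within set B, and Atp5d, the delta subunit beside it, by 0.093.

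Atp5k, the e subunit that takes part in dimers of the enzyme, had log2 values of 11.22, 10.72 and 11.12 in me, 11.23, 10.78 and 10.90 in he and 11.32, 11.26, 10.85 and 10.98 in WT arrays. Within each array set the me arrays were the lowest, and the difference from WT with the block was -0.15 (unadjusted p 0.026), or -0.021 with me 3 counted in set B. The other membrane genes Atp5j2 and Atp5l differed by -0.040 and -0.0080. Atp5pb, the b subunit of the stalk, differed by -0.14 (unadjusted p 0.047). The 3 genes of the c ring encode the same mature protein with different presequences, and Atp5g1, Atp5g2 and Atp5g3 differed by -0.10, -0.082 and 0.044, with intervals that included 0.

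In all, 12 of the 91 genes had an unadjusted p under 0.05 for me against WT with the block (13.2%), against 5.07% of all genes. Of these, 10 were lower in me (Ndufc2, Ndufa12, Ndufb6, Ndufa10, Ndufaf4, Ndufaf6, Uqcrc2, Cox5a, Atp5pb and Atp5k), as 2.97% of all genes were, and 2 were higher (Cox6c and Cox7b2), as 2.1% were. Among the 1104 genes at or above the median level of the 91, a set brighter on the whole than the 91, the share was 11.5%. With me 3 counted in set B, 6 of the 91 had such a p (6.59%), against 4.03% of all genes, with Ndufa12, Ndufa10 and Cox6a2 lower in me and Ndufs4, Uqcrfs1 and Cox4i1 higher. With the block and each array left out, the count ran from 6 (without me 2) to 10 (without me 1). Of the 51 genes with several probe sets, all probe sets had the same sign of me minus WT with the block in 27.

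For he against WT, the median of the 91 differences was -0.092 without the block, with 24 higher and 67 lower in he, and -0.042 with it, with 26 higher and 65 lower. All genes had -0.0082 and -0.0046. Set B, in which these genes were lower, holds 2 of the 3 he arrays and 2 of the 4 WT arrays. With the block the medians were -0.077 for complex I, -0.016 for complex II, -0.040 for complex III, -0.010 for complex IV and -0.065 for complex V. Single arrays moved these values. When each array was left out with the block, the median of the 91 ran from -0.062 (without he 3) to -0.022 (without he 1), that of complex I from -0.088 (without WT 1) to -0.038 (without WT 2) and that of complex II from -0.084 (without he 3) to 0.016 (without WT 4). Complex III ran from -0.18 (without he 3) to -0.0055 (without he 1), complex IV from -0.025 (without he 3) to 0.017 (without he 1) and complex V from -0.088 (without he 3) to -0.030 (without WT 4), so the sign of complexes II and IV was not stable. In both array sets alike, 45 of the 91 genes were lower in he (49.5%), against 29.3% of all genes. The me and he comparisons share the WT arrays, so their values are not independent. At an unadjusted p under 0.05 with the block there were 4 genes (4.4%), against 2.28% of all genes. All 4 were lower in he (Ndufv1, Ndufa5, Ndufb2 and Ndufaf4), as 1.67% of all genes were. The count ran from 1 (without he 1) to 5 (without me 3) when each array was left out, and with me 3 counted in set B it was 2 (Ndufv1 and Ndufaf4), against 0.863% of all genes.

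Ndufv1, the core subunit that binds NADH and the flavin, had log2 values of 11.10, 10.88 and 11.13 in he, 11.15, 11.32 and 11.41 in me and 11.23, 11.56, 11.26 and 11.18 in WT arrays. Every he array was below every WT array and below every me array, and me overlapped WT. The he minus WT difference was -0.27 ± 0.11 (SE), with an unadjusted p of 0.042 and an adjusted p of 1.00, and -0.26 with the block. Its second probe set gave -0.17 and its dimmest 0.0025 with the block. With Ndufa12, 2 of the 91 genes had he arrays that did not overlap WT arrays, as 0.885% of all genes did not.

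Ndufaf4 had log2 values of 9.31, 9.15 and 8.95 in he and 9.57, 9.70, 9.35 and 9.14 in WT arrays. The groups overlapped, and the he minus WT difference was -0.25 with the block (unadjusted p 0.010). Ndufa5 and Ndufb2, accessory subunits of complex I, differed by -0.18 and -0.18 (unadjusted p 0.041 and 0.032). Among catalytic or central subunits of the other complexes, Sdha had a he minus WT difference of -0.091 and Cyc1 one of -0.15 with the block. With the block this difference was 0.084 for Uqcrfs1, 0.021 for Cox4i1, -0.030 for Cox5a, -0.0042 for Atp5a1 and -0.089 for Atp5b.

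For me against he, 67 of the 91 genes were higher in me without the block, against 9733 of all 18193 genes. Without the block the median over all genes was 0.011. The median of the 91 differences was 0.095 without the block and 0.010 with it. When each array was left out, it ran from 0.033 (without he 2) to 0.17 (without me 2) without the block and from 0.0017 (without me 3) to 0.029 (without me 2) with it. The value with the block rested on the set of me 3, since it was 0.095 with me 3 counted in set B. The me arrays did not overlap the he arrays for Ndufv1 and Cox6c, higher in me, and for Atp5h, the d subunit of the stalk, lower in me. These are 3 of 91 genes, and 2.49% of all genes did not overlap. Atp5h had 12.80, 12.80 and 12.68 in me and 12.89, 12.90 and 12.86 in he arrays, while its WT arrays, at 12.92, 12.59, 13.00 and 12.83, ran across both. With the block Cox5a was the only one of the 91 with an unadjusted p under 0.05, at 0.012 (1.1%), against 3.52% of all genes, and it was lower in me, as 1.37% of all genes were. With me 3 counted in set B the count was 0, against 4.53% of all genes, and with each array left out it ran from 1 (without me 3) to 7 (without me 1).

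Other genes of the pathway, from lists set by name, did not pass the test for me against WT either. Of 39 measured assembly factors outside the names above, of 43 listed, 0 were called, with a median of -0.028 with the block. Coa5 and Cox20, assembly factors of complex IV, differed by -0.13 and -0.21. Of 16 measured genes of electron carriers and coenzyme Q synthesis, of 17 listed, 0 were called. Their median was 0.0091 without the block and -0.026 with it. Cycs, which encodes cytochrome c, had log2 values of 12.25, 11.59 and 12.09 in me, 12.23, 12.08 and 11.89 in he and 12.33, 12.48, 12.16 and 11.95 in WT arrays. Each me array was below both WT arrays of its own set, with a difference of -0.32 with the block (unadjusted p 0.0073, adjusted p 0.989). Coq8a, needed for coenzyme Q synthesis, had 8.73, 8.68 and 8.58 in me, 8.49, 8.25 and 8.18 in he and 8.47, 8.54, 8.33 and 8.30 in WT arrays. Every me array was above all he and WT arrays, with a difference from WT of 0.25 without the block and 0.22 with it (unadjusted p 0.0092, adjusted p 0.989).

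Of 16 measured TCA cycle genes, of 17 listed, 0 were called, with a median of 0.023 without the block and -0.0057 with it. Dlat, a subunit of pyruvate dehydrogenase, differed by -0.30 (unadjusted p 0.0010, adjusted p 0.690). Of 16 measured carriers, uncoupling and import genes, of 18 listed, 0 were called, with a median of -0.10 without and with the block. Hspa9, the chaperone of mitochondrial import, had log2 values of 10.41, 9.88 and 10.21 in me, 10.40, 10.14 and 10.11 in he and 10.61, 10.57, 10.15 and 10.29 in WT arrays. Each me array was below both WT arrays of its own set, with a difference of -0.30 with the block (unadjusted p 0.0012, adjusted p 0.690). Hspe1, of the chamber that folds imported proteins, differed by -0.30, and Tomm22, an import receptor, by -0.26. Of 18 measured regulators of mitochondrial genes, 0 were called, with a median of -0.032 without the block and -0.021 with it. Nrf1 differed by -0.011, Gabpa by -0.012, Yy1 by 0.078 and Tfam, which packages mitochondrial DNA, by 0.086. Of the 13 subunits encoded in mitochondrial DNA, ND5 of complex I alone had a probe set, with 11.52, 12.13 and 12.32 in me, 11.80, 12.38 and 12.71 in he and 11.59, 12.32, 12.43 and 12.65 in WT arrays, which overlapped, and it differed by -0.17 with the block.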

How the data were processed

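Lymph node T cells carrying CD4 and CD25 gave 10 Affymetrix arrays, 3 me, 3 he and 4 WT. Each array's table holds linear intensity as deposited, with 1 value for each probe set. How the authors summarised, corrected and scaled them is not given in the sources used here, and precision is limited by how few arrays there are. The 64 control probe sets among 45101 were dropped, which left 45037. Of these 34945 were annotated to 1 gene, 932 to several and 9160 to no gene.

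Intensity was taken to log2 after adding 32, and arrays were quantile normalised. Genotypes were compared with limma 3.58.1 in R 4.3.3 (lmFit and eBayes on the 10 arrays, which leave 7 residual degrees of freedom). P-values were adjusted by Benjamini-Hochberg over every probe set tested, with a threshold of 0.05 and 95% intervals, and the fit was repeated with array set as a block. Array sets were read from correlations between arrays, after seeing the data. Python 3.11.15 with pandas 2.3.3 and numpy 2.4.6 made the summaries. The fit was also run on simulated data with independent noise and array sets taken as known. Such data cannot check fits whose sets were read from the same values. Correlations of same-numbered arrays ran from -0.87 to 0.94. They were positive within an array set and negative across sets, so they cannot show whether replicate numbers pair arrays.

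The members and lists were chosen with earlier results of these data known. The rule for named genes takes each complex's smallest p-values, its catalytic or central subunits, isoform sets and brightest and dimmest genes. It also takes up to 4 genes of each other list. Ndufb6, Ndufb4, Ndufs5, Ndufaf6, Ndufa5, Ndufb2, Ndufa9, Uqcrh, Cox7b2, Cox7c, Atp5pb, Atp5k and Atp5j, and the regulators named for their motifs, were added after their values were seen. Alternatives were other pseudocounts, scalings, a filter on low values, other priors and samples in the fit, blocks and leaving out each array.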

Additional observations from a re-analysis of the deposited data

Results flagged for a closer look

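Among the 91 genes over the 4 WT arrays, 3 had a lowest array whose gap to the nearest other exceeded Dixon's 95% critical value, which chance alone exceeds in about 1 in 20 groups. These 3 of 91 are fewer than 1 in 20, and in all 3 the lowest array was WT 2. Ndufaf8, an assembly factor of complex I, had 10.39 in WT 2 on the log2 scale and 10.59 to 10.64 in the other WT arrays. Cox6c had 11.24 in WT 2 and 11.57 to 11.63 in the others. Atp5c1 had 12.36 in WT 2 and 12.73 to 12.75 in the others.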

How the results depend on the processing

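No member was called under any alternative run. The number of probe sets called for me against WT was 0 without a block, 3 with array set as a block, 0 to 2 when each array was left out (2 without me replicate 2) and 0 to 5 with the block and each array left out (0 without WT replicate 2, 5 without he replicate 2). For me against he, and for the F test, it was 0 to 2 when each array was left out, without and with the block (2 without me replicate 2). The median he minus WT difference of the 91 genes was -0.226 without normalisation and -0.246 after centring on the array median, that of complex I -0.274 and -0.294, and that of complex II -0.188 and -0.208. After centring it was -0.179 for complex IV and -0.243 for complex V. For me against he, the median of the 91 genes was 0.169 without normalisation and 0.209 after centring, against 0.0071 and 0.047 over all genes. In this comparison complex II had 0.143 without normalisation and 0.183 after centring, and complex V had 0.215 after centring. Complex IV had -0.024 to 0.036 with the block and each array left out. The cause of these shifts was not tested. Counting me 3 in set B gave 0 called probe sets for me against WT. With the replicate number as a block 0 probe sets were called and the median of the 91 genes was -0.042 for me minus WT and -0.128 for he minus WT. The he minus WT median without the block ran from -0.167 (without he 1) to -0.029 (without WT 2). Under no normalisation the me minus WT median of the 91 genes was -0.074 and that of complex V -0.056, and after centring -0.055 and -0.036. Signal near the low end of the arrays limits the 6 genes under the median level.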
